A study of Mus musculus with 15 samples.

Results

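RNA-binding proteins of the Mex3, Igf2bp and Musashi families, together with Lin28b, were examined in adult neural stem cells (aNSCs) in which the histone acetyltransferase cofactor Trrap was or was not deleted. The 10 genes Mex3a, Mex3b, Mex3c, Mex3d, Igf2bp1, Igf2bp2, Igf2bp3, Lin28b, Msi1 and Msi2 were chosen by name from the 53801 genes of the count table, and all 10 were found there by Ensembl ID. The Lin28b paralog Lin28a was not one of them and was kept in a list of other RNA-binding proteins. It averaged 0.0279 to 0.0512 CPM (counts per 1000000 counts of the scaled library total) in the 3 groups and was too low to be tested. The levels of the 10 genes in these libraries were known when they were listed, so their levels and differences are a description of these libraries, and the calls given for them are not independent evidence.

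RNA-seq had been carried out on 15 aNSC cultures, which form 3 groups of 5. The cells were isolated from the subventricular zone of mice of the strain C57BL6/J-129sv at 2 months of age and grown in suspension with growth factors. All 15 cultures carried the Rosa26-CreERT2 transgene and at least 1 floxed Trrap allele. Untreated Fl/+ cultures and Fl/+ cultures given 4-hydroxytamoxifen (4-OHT) came from the same mice, numbered 19, 24, 26, 35 and 36. The Fl/Fl group, also given 4-OHT, was made up of mice 27, 28, 29, 37 and 39. The labels give 5 days of 4-OHT, whereas the study's methods describe a shorter exposure followed by fresh medium, so the time the cells spent in the drug is uncertain. No untreated Fl/Fl culture was analysed here. Each group was labelled as 3 male and 2 female mice.

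4-OHT activates the CreERT2 recombinase, which the Rosa26 locus drives in nearly every cell type, and the recombinase can act on the floxed allele of Fl/+ cells as well. The Fl/+ 4-OHT group is therefore a control with 1 recombinable allele, and the comparison of Fl/Fl 4-OHT with Fl/+ 4-OHT cultures is called Trrap deletion here. The comparison of Fl/+ cultures with and without 4-OHT holds the drug, CreERT2 activity and the loss of 1 allele together, and these cannot be told apart.

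Trrap RNA, counted over all exons and so not over the deleted segment alone, was at 179 to 214 CPM in untreated Fl/+, 138 to 204 CPM in Fl/+ 4-OHT and 82.8 to 142 CPM in Fl/Fl 4-OHT cultures. It fell after Trrap deletion by 0.64 on the log2 scale (SE 0.16, adjusted p = 0.0115 by edgeR's quasi-likelihood test with Benjamini-Hochberg adjustment, which is the test behind every adjusted p below), although the groups overlapped. Library totals ran from 25720034 to 32187097 counts. The stem cell markers Nes (489 to 1380 CPM) and Sox2 (200 to 509 CPM) were present in every library, and 7 microglia markers summed to at most 2.01 CPM in any of them. 1 library, Fl/Fl 39, was labelled female but had 0.313 CPM of Xist and 54.0 CPM of the Y-linked Ddx3y. Library Fl/+ 4-OHT 36, labelled male, had 74.7 CPM of Xist beside 52.9 CPM of Ddx3y. Library Fl/+ 4-OHT 19 held the highest Igf2bp3 level, and results that rest on it are given with and without it.

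These families act on messenger RNA after transcription. Mex-3 proteins carry KH domains, which bind RNA, and a RING finger with ubiquitin ligase activity. Igf2bp proteins bind, stabilise and localise mRNAs and are known as readers of N6-methyladenosine (m6A). Lin28b blocks the maturation of the microRNA let-7, which represses growth and fetal genes, and Musashi proteins bind the mRNA of Numb, an inhibitor of Notch signalling. Igf2bp1, Igf2bp3 and Lin28b are known as fetal genes that are mostly silent in adult tissue, whereas Msi1 and Msi2 are long-used markers of neural stem and progenitor cells.

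The levels of the families differed over several orders of magnitude. Levels of different genes were compared per kilobase of exon (RPKM). In untreated Fl/+ cultures, Msi2 was at 30.1 ± 1.36 RPKM (SD, n = 5), Msi1 at 25.4 ± 5.39 RPKM and Mex3c at 23.9 ± 3.04 RPKM. Mex3a followed at 18.7 ± 3.96 RPKM, Mex3d at 11.5 ± 3.11 RPKM and Mex3b at 7.87 ± 2.52 RPKM. The libraries of each of these genes overlapped with those of its neighbours in the order. This holds for the union of annotated exons as gene length. With the longest annotated transcript instead, Msi2 came to 48.6 RPKM and Msi1 to 47.1 RPKM, and the lowest Msi1 library (39.6 RPKM) was above the highest Mex3c library (28.1 RPKM). Igf2bp2, at 1.84 ± 1.21 RPKM, lay below Mex3b without overlap, and Igf2bp3, at 0.0642 ± 0.0572 RPKM, lay below Igf2bp2 without overlap.

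Lin28b had 0 counts in all 15 libraries, which allows up to 0.0932 to 0.119 CPM per library if 3 counts are taken as the limit for counting error. Igf2bp1 had 1 count in 1 library of each group and 0 counts elsewhere. Both were too low to be tested, and 8 of the 10 genes passed the filter on low counts in each comparison. No difference in Lin28b or Igf2bp1 was detectable at this depth.

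The order of the levels was not the same in the groups given 4-OHT. In Fl/+ 4-OHT cultures Igf2bp2, at 6.3 RPKM (4.16 to 8.7 RPKM), already overlapped with Mex3b, at 6.71 RPKM (5.59 to 8.82 RPKM). In Fl/Fl 4-OHT cultures, Mex3a at 6.0 ± 0.909 RPKM and Mex3d at 5.67 ± 0.362 RPKM overlapped with Igf2bp2 at 6.22 ± 1.70 RPKM. Mex3b, at 2.88 ± 0.468 RPKM, was below Igf2bp2 in every library of this group. Msi2 at 32.9 ± 1.99, Msi1 at 23.3 ± 2.38 and Mex3c at 22.1 ± 1.90 RPKM stayed at the head of the order. With the longest annotated transcript as gene length, Igf2bp2 in Fl/Fl 4-OHT cultures came to 9.29 RPKM (7.06 to 13.3 RPKM) and no longer overlapped with Mex3a (4.80 to 6.82 RPKM) or Mex3d (5.08 to 5.93 RPKM), whose values did not move, so the overlap holds for exon union length only.

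**Figure D1:**
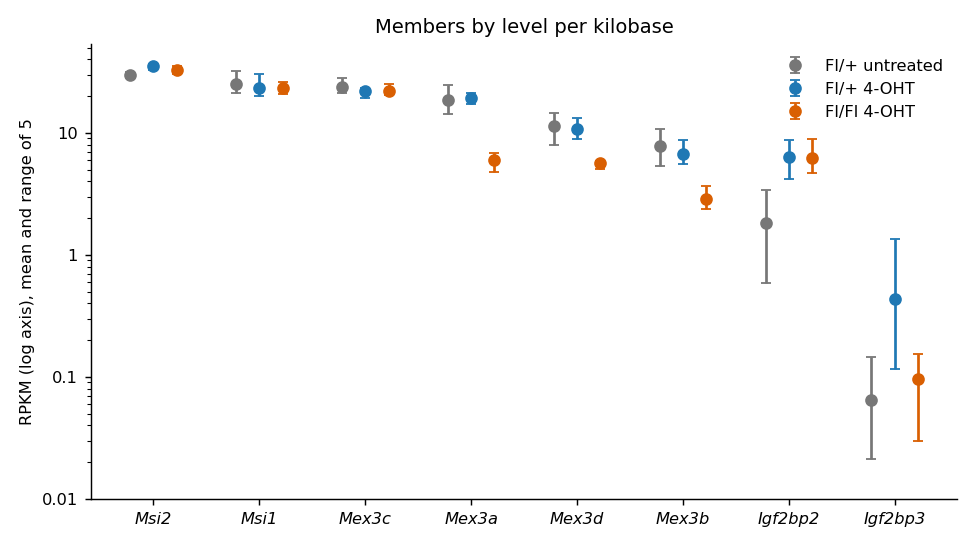
Mean RPKM by exon union length (log axis) of the 8 tested genes, ordered by their level in untreated Fl/+ cultures, with bars from the lowest to the highest of 5 libraries in each of the 3 groups. In Fl/Fl 4-OHT cultures the bars of Mex3a (4.80 to 6.82 RPKM) and Igf2bp2 (4.73 to 8.87 RPKM) overlap, while in untreated cultures Mex3a (14.2 to 24.6 RPKM) lies above Igf2bp2 (0.593 to 3.40 RPKM).

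The first comparison asked which of the genes differ between cells that could lose both Trrap alleles and cells that could lose 1. After Trrap deletion Mex3a fell to 31.3% of its control level, Mex3b to 43.4% and Mex3d to 53.3%, while the fitted fold of the fourth Mex3 gene, Mex3c, was 101% of control. Igf2bp3 had a lower fitted level that rested on 1 control library. Of the 8 genes tested, 4 were called lower and 0 higher at an adjusted p under 0.05. Over all 15036 genes tested, 31.7% were called, 15.0% lower and 16.8% higher. These were 2520 genes higher and 2253 lower with TMM scaling, against 2848 and 1951 with library size alone. Since the families were listed with these differences known, nothing is read from the count. The median log2 fold change of the 8 genes was -0.50, beside 0.02 for all genes. Between the groups, 3403 of the 15036 genes did not overlap, Mex3a, Mex3b and Mex3d among them.

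Mex3a lies at chr3:88532395-88541396 on the plus strand of GRCm38. It encodes a Mex-3 protein known to mark slowly cycling progenitors in the gut. In Fl/+ 4-OHT cultures it was at 123, 101, 122, 105 and 109 CPM for mice 19, 24, 26, 35 and 36. In Fl/Fl 4-OHT cultures it was at 39.4, 36.2, 39.4, 30.7 and 27.7 CPM for mice 27, 28, 29, 37 and 39. The highest mutant library was thus far below the lowest control library. In the fit its log2 fold change came to -1.67 (SE 0.114, adjusted p = 2e-05), and by p-value Mex3a was number 7 of the 15036 genes. Untreated Fl/+ cultures, at 82.2 to 142 CPM, overlapped with Fl/+ 4-OHT cultures.

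Mex3b lies at chr7:82867333-82871515 on the plus strand and encodes a protein with the same kinds of domain as Mex3a. It was at 23.0, 22.4, 29.6, 18.8 and 18.8 CPM in Fl/+ 4-OHT and at 9.29, 9.45, 12.3, 9.24 and 8.06 CPM in Fl/Fl 4-OHT cultures, with the mice in the same order. The groups did not overlap. On the log2 scale Mex3b differed by -1.20 (SE 0.158, adjusted p = 0.000392).

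Mex3d, at chr10:80380355-80387659 on the minus strand, is the family member known for binding AU-rich elements of Bcl2 mRNA. It was at 32.2, 41.2, 43.0, 29.3 and 29.8 CPM in Fl/+ 4-OHT and at 16.6, 19.3, 19.4, 19.2 and 18.2 CPM in Fl/Fl 4-OHT cultures. All 5 mutant libraries lay within a narrow band below the controls. On the log2 scale Mex3d differed by -0.91 (SE 0.126, adjusted p = 0.000526).

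Mex3c, a ubiquitin ligase with known roles in mRNA decay, was at 72.9 to 86.8 CPM (median 84.1) in Fl/+ 4-OHT and at 76.9 to 94.7 CPM (median 81.5) in Fl/Fl 4-OHT cultures. The groups overlapped throughout, with a log2 difference of 0.02 (SE 0.0729, adjusted p = 0.875). Thus the same libraries that were low in Mex3a, Mex3b and Mex3d held Mex3c at the control level or close to it.

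The 3 genes that fell also varied together over the 15 libraries. On the scale log2(CPM + 0.5), Pearson's r was 0.94 between Mex3a and Mex3b, 0.89 between Mex3a and Mex3d, and 0.97 between Mex3b and Mex3d. Mex3c correlated with them at 0.04, -0.14 and -0.18. These values describe 15 libraries that share mice and fall into groups, and the difference between Fl/Fl and Fl/+ cultures enters every one of them. Mex3b and Mex3d also shared a pattern within the untreated cultures. In mice 35 and 36 Mex3b was at 17.9 and 19.1 CPM and Mex3d at 25.9 and 28.0 CPM, whereas the other 3 untreated cultures had 24.6 to 36.3 CPM of Mex3b and 40.1 to 47.2 CPM of Mex3d.

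The study asked about promoter control by Trrap and the transcription factor Sp1, which binds GC boxes, so the promoters of Mex3a and Mex3b, 2 of the 3 genes that fell together, are shown. That of Mex3d was not analysed here. RefSeq promoters of GRCm38.p6, running from 250 bases before to 50 bases after the transcription start, were searched for the GC box GGGCGG or its reverse complement CCGCCC, and matches are in capitals. Overlapping matches were counted separately. The promoter of Mex3a (chr3:88531696-88531995, plus strand) held 1 match, and that of Mex3b (chr7:82867083-82867382, plus strand) held 3.
Mex3a: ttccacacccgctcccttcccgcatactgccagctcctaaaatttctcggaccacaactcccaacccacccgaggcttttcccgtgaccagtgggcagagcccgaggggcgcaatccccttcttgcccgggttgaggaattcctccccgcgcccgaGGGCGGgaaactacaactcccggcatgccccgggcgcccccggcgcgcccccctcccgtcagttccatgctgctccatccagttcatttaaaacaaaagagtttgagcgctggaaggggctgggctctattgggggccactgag
Mex3b: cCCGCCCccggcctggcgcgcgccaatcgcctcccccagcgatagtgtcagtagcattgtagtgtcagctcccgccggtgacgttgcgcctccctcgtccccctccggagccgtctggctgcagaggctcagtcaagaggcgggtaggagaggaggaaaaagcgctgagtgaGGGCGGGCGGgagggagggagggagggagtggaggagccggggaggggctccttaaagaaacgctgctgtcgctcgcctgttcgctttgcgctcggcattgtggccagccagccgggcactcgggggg
Among all 32851 promoters in the table, 35.7% held at least 1 match. The promoter of Igf2bp2, which did not differ after Trrap deletion beyond the spread between libraries, held 2 matches. Of the other genes with a promoter in the table, Igf2bp3, which was called lower, held 0 matches, Msi2, which was not called, held 2 or 3 in each of its 3 listed promoters, and Lin28b held 0. A match is a run of letters and says nothing of whether Sp1 binds there. The start of Mex3a in RefSeq lies upstream of the gene model behind the counts.

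The mice come in a lower and a higher series of numbers, below 30 and above 30, and both genotypes are present in each. Within each series, however, genotype went with labelled sex. Above 30 the Fl/+ mice were labelled male and the Fl/Fl mice female. Below 30 all Fl/Fl mice were labelled male and most Fl/+ mice female. Genotype and labelled sex therefore cannot be told apart in the values within a series. Within mice below 30 the log2 fold changes were -1.60 for Mex3a, -1.28 for Mex3b and -1.09 for Mex3d, all called. Within mice above 30, with 2 cultures a group, they were -1.86, -1.11 and -0.65, with adjusted p of 0.0677, 0.0677 and 0.0756 by edgeR's quasi-likelihood test. Without the library Fl/Fl 39, whose sex label and sex-linked RNA differ, they were -1.61, -1.15 and -0.91.

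**Figure D2:**
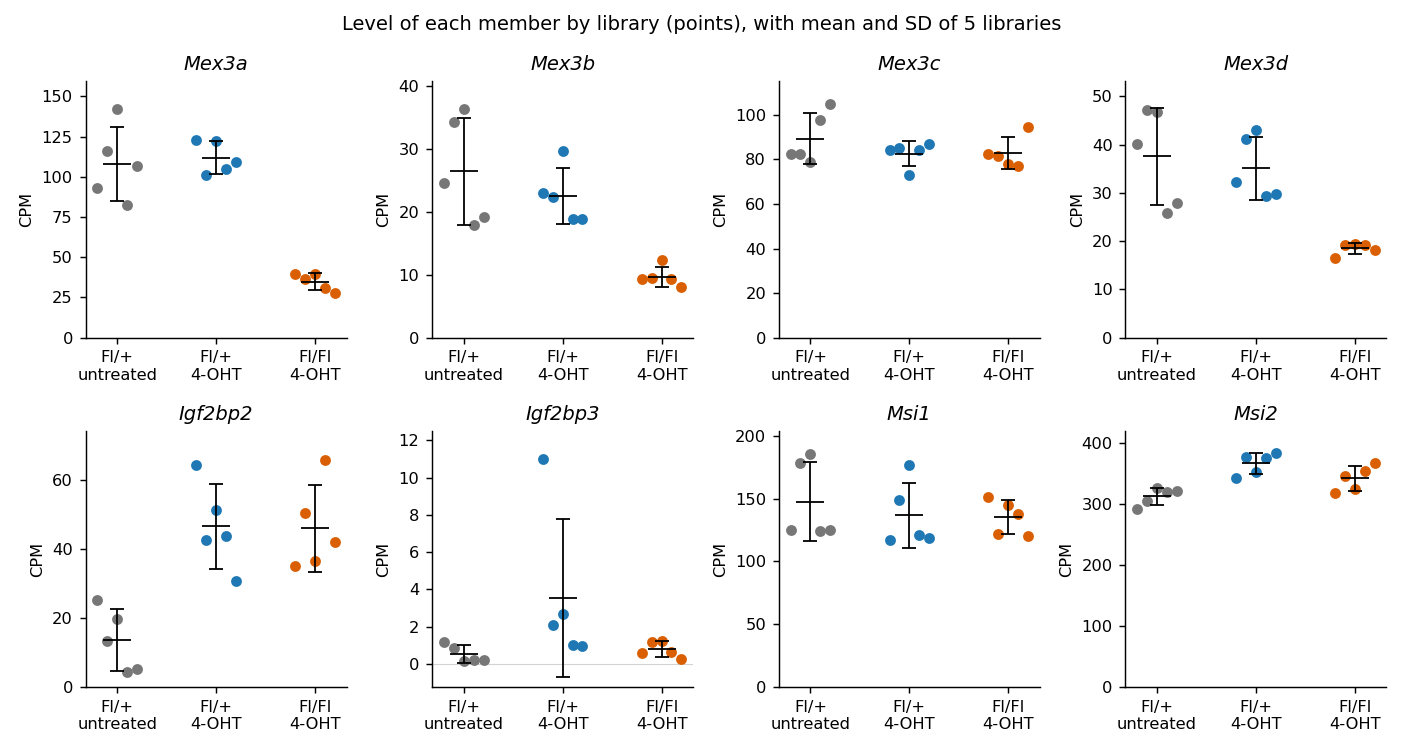
CPM of the 8 tested genes in each of the 15 libraries (points, 1 colour per group, mice in ascending number from left to right), with the mean and SD of 5 libraries in black. The Fl/Fl 4-OHT points of Mex3a (27.7 to 39.4 CPM), Mex3b and Mex3d lie below all Fl/+ points, and 1 Fl/+ 4-OHT point of Igf2bp3 stands at 11.0 CPM.

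Markers of cell states are given beside the fall of the Mex3 genes, and their part in it was not tested. Of 14 neural stem cell markers 0 were higher and 4 lower (28.6% called, beside 31.7% of all genes), among them the Notch target Hes5, which was at 14.3 to 31.2 CPM in Fl/+ 4-OHT and 5.06 to 12.8 CPM in Fl/Fl 4-OHT cultures. The summed level of these markers ranged from 10000 to 12100 CPM in the control and from 8340 to 12700 CPM in the mutant group. Of 12 neuron markers tested 1 was higher and 1 lower (16.7% called), and their sums were 871 to 1010 and 669 to 874 CPM. The higher one, Slc17a7, had few counts and averaged 0.236 CPM in the control and 0.516 CPM in the mutant group. The lower one, Tubb3, averaged 27.0 and 13.1 CPM (log2 fold change -1.04, adjusted p = 0.0334). Map2, at 798 and 684 CPM and not called, carried most of the sums. Of 12 markers of the oligodendrocyte lineage 1 was called (8.33%), the myelin gene Mobp, at 4.38 to 12.2 CPM in the control and 13.0 to 58.6 CPM in the mutant cultures (log2 fold change 1.78, adjusted p = 0.0118). The median of that list was 0.62 on the log2 scale, beside 0.02 for all genes, and its sums were 3390 to 4680 and 3620 to 5610 CPM. Of 8 astrocyte markers 1 was called (12.5%), the glycolytic enzyme gene Aldoc, at 460 to 552 and 585 to 707 CPM (log2 fold change 0.38, adjusted p = 0.00439), and the sums were 4000 to 5200 and 3410 to 7010 CPM. Mobp, Aldoc and Slc17a7 rose without overlap between the groups, and Hes5 and Fabp7 (2290 to 3470 and 1520 to 2220 CPM) fell without overlap. Of all 15036 genes tested, 3403 did not overlap. The microglia markers summed to 0.119 to 0.507 and 0.688 to 2.01 CPM, and the 1 of them that could be tested was not called. In bulk RNA, fewer cells of a type and less RNA per cell cannot be told apart.

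Igf2bp3, at chr6:49085223-49214957 on the minus strand, encodes a fetal mRNA-binding protein. It had 27 to 325 counts per library in Fl/+ 4-OHT and 7 to 38 counts in Fl/Fl 4-OHT cultures. Every control library reached the filter's minimum of 10 counts, and the lowest mutant library did not. The levels were 11.0, 2.09, 2.69, 1.01 and 0.952 CPM in the control group and 0.590, 1.19, 1.25, 0.619 and 0.243 CPM in the mutant group. The groups overlapped, and the culture of mouse 19 stood far above the rest. The log2 fold change of -2.16 (SE 0.707, adjusted p = 0.0371) became -1.11 with an adjusted p of 0.115 by edgeR when that library was left out. The call was also lost without any 1 of the mutant libraries 27, 28, 37 and 39, with adjusted p of 0.0515 to 0.0776 and log2 fold changes of -2.38 to -1.95.

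The remaining genes did not pass the test after Trrap deletion. Igf2bp2 was at 30.8 to 64.4 CPM in the control and 35.0 to 65.7 CPM in the mutant cultures, with a log2 difference of -0.01 (SE 0.208). Its value was -0.39 within mice below 30 and 0.54 within mice above 30, neither of them called. Msi1 was at 117 to 177 CPM in the control and 120 to 151 CPM in the mutant cultures. Msi2 was at 343 to 384 CPM and 318 to 368 CPM, with a log2 difference of -0.09 (SE 0.0651, adjusted p = 0.344). Both Musashi genes overlapped between the groups.

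The second comparison set Fl/+ cultures with 4-OHT against untreated cultures of the same 5 mice. Igf2bp2 and Igf2bp3 were higher with 4-OHT, and the level was higher in 5 of 5 mice for each. Igf2bp3 passed the filter on low counts through its 4-OHT libraries, so its call is a description only. Msi2 was 117% of the untreated level, also higher in 5 of 5 mice, just outside the threshold. Of the 8 genes tested, 2 were called higher and 0 lower. Over the 14821 genes tested in this comparison 13.8% were called, 7.34% higher and 6.45% lower, and again nothing is read from the count. Scaling by library size alone in place of TMM gave 1396 genes higher and 712 lower, against 1088 and 956 with TMM. When the mouse was kept as a replicate block, 3 of the 8 genes were called, all higher, beside 25.7% of all genes. The median log2 fold change of the 8 genes was -0.02, beside -0.01 for all genes. Between the groups, 1777 of the 14821 genes did not overlap, Igf2bp2 and Msi2 among them.

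Igf2bp2, at chr16:22059009-22163299 on the minus strand, is the Igf2bp gene that many adult tissues express. It was at 25.2, 13.5, 19.7, 4.39 and 5.41 CPM in the untreated cultures of mice 19, 24, 26, 35 and 36, and at 64.4, 42.7, 51.4, 43.7 and 30.8 CPM after 4-OHT. The groups did not overlap, and mice 35 and 36 started from the lowest levels. The unpaired log2 fold change came to 1.77 (SE 0.435, adjusted p = 0.0214), or 2.00 (SE 0.274, adjusted p = 0.00176) with the block. It was 1.44 within mice below 30 and 2.94 within mice above 30, called in both. Without library Fl/+ 4-OHT 19 it was 1.64, with an adjusted p of 0.0527 by edgeR.

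Igf2bp3 was at 1.19, 0.837, 0.175, 0.231 and 0.184 CPM in untreated cultures and at 11.0, 2.09, 2.69, 1.01 and 0.952 CPM after 4-OHT. The lowest treated cultures were below the highest untreated one, so the groups overlapped. Igf2bp3 had 5 to 33 counts in the untreated and 27 to 325 counts in the 4-OHT libraries. It entered the test through the 4-OHT libraries, where it is high, which limits what its calls can show. The fitted log2 fold change came to 2.75 (SE 0.801, adjusted p = 0.0434) without the block and 2.56 (SE 0.370, adjusted p = 0.00216) with it. Without library Fl/+ 4-OHT 19 the unpaired value was 1.68 with an adjusted p of 0.117. With the block and both cultures of mouse 19 left out, Igf2bp3 was 2.31 (SE 0.428, adjusted p = 0.013) and Igf2bp2 was 2.18 (SE 0.309, adjusted p = 0.00505). The unpaired call of Igf2bp3 was also lost without any 1 of the untreated libraries 24, 26, 35 and 36 or the 4-OHT libraries 24 and 26, with log2 fold changes of 2.52 to 2.98 and adjusted p of 0.0565 to 0.0916.

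**Figure D3:**
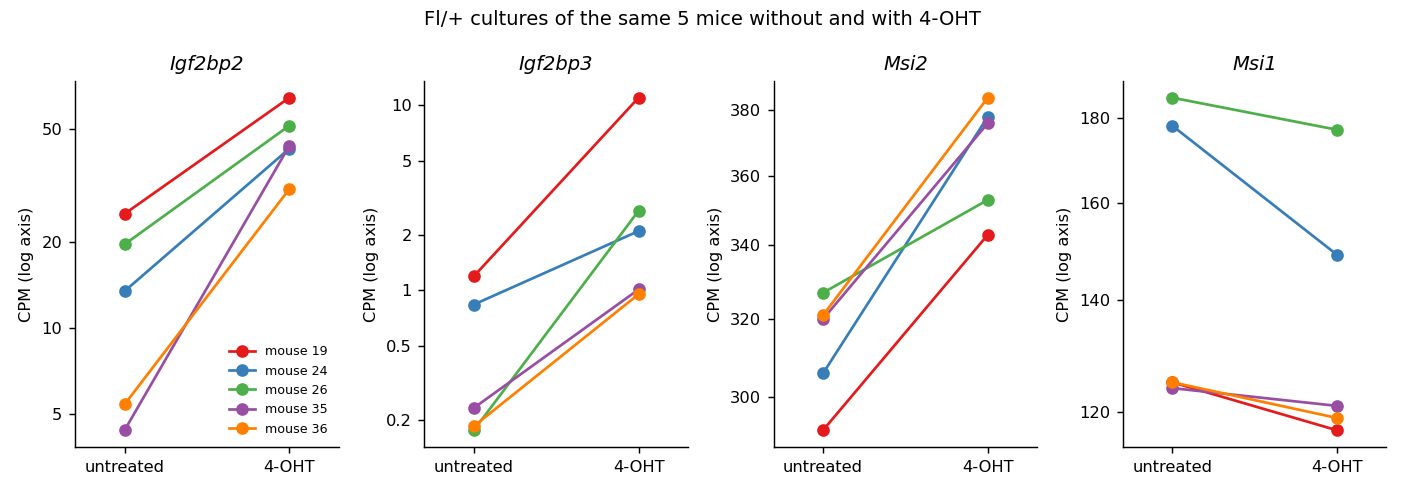
CPM (log axis, a different range in each panel) of Igf2bp2, Igf2bp3, Msi2 and Msi1 in the untreated and the 4-OHT culture of each Fl/+ mouse, joined by a line. Igf2bp2, Igf2bp3 and Msi2 were higher with 4-OHT in 5 of 5 mice, and the Igf2bp3 line of mouse 19 runs from 1.19 to 11.0 CPM.

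Among the Musashi genes, Msi2 was at 292, 306, 327, 320 and 321 CPM in untreated cultures and at 343, 378, 353, 376 and 384 CPM after 4-OHT. Each treated culture was above every untreated one. The log2 difference was 0.23 (SE 0.0716, adjusted p = 0.0544), and 0.23 (SE 0.0701, adjusted p = 0.0428) with the block. Msi1, in contrast, was lower in 5 of 5 mice by a small amount, from 125, 178, 185, 124 and 125 CPM to 117, 149, 177, 121 and 119 CPM. Its log2 difference was -0.11 (SE 0.161, adjusted p = 0.691), and -0.10 (SE 0.0668, adjusted p = 0.28) with the block. The cultures of mice 24 and 26 had the highest Msi1 levels with and without 4-OHT.

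None of the 4 Mex3 genes passed the test after 4-OHT. Their log2 differences were 0.05 for Mex3a (SE 0.135), -0.23 for Mex3b (SE 0.216), -0.11 for Mex3c (SE 0.0951) and -0.10 for Mex3d (SE 0.192). Mex3b was lower in 4 of 5 mice. Mex3a was higher in 3 of 5 mice.

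Markers of several cell states moved with the rise of the Igf2bp genes. Of 12 markers of the oligodendrocyte lineage 8 were called higher after 4-OHT (66.7%, beside 13.8% of all genes), among them Sox10, at 9.24 to 53.0 CPM untreated and 73.0 to 119 CPM treated. The sum of the list was 3470 to 4520 CPM untreated and 3390 to 4680 CPM treated. It was carried largely by Olig1, at 2440 CPM untreated and 1890 CPM treated on average, and Olig2, at 830 and 837 CPM, which were not among the 8, so it says little of the called markers. The neural stem cell list had 1 of 14 markers higher and 4 lower (35.7% called). Of 8 astrocyte markers 1 was higher and 4 were lower (62.5% called). Gfap, the intermediate filament of astrocytes that adult neural stem cells also express, rose by 3.25 on the log2 scale, from 57.7 to 548 CPM on average. Aldoc, Gja1, S100b and Gjb6 fell by 0.74, 0.58, 1.91 and 1.93. The sum of the astrocyte list, 3470 to 4590 CPM untreated and 4000 to 5200 CPM treated, overlapped between the groups. These counts come from the unpaired fit. With the mouse as a replicate block, 8 oligodendrocyte markers were higher and 1 lower, 2 stem cell markers higher and 5 lower, and 2 astrocyte markers higher and 4 lower. Of 11 neuron markers tested 0 were higher and 1 lower without the block, and 2 higher and 3 lower with it (45.5% called, beside 25.7% of all genes). Of 6 endothelial markers 2 were tested and 1 was higher (50% called). This was Flt1, from 14.7 to 31.7 CPM on average (log2 fold change 1.11, adjusted p = 0.0448), and it was also called with the block. Of 6 ependymal and choroid markers 1 was tested and it was not called in either fit. The part of these cell states in the Igf2bp levels was not tested.

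Igf2bp1, Igf2bp2, Igf2bp3 and Lin28b are known targets of let-7, so the sites that let-7 could pair with are shown. Of the let-7 family in RefSeq, all listed mature microRNAs except let-7j share the seed GAGGUAG (bases 2 to 8, in capitals), as in the following pair.
mmu-let-7a-5p: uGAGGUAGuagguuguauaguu
mmu-let-7g-5p: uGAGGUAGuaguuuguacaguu
The longest annotated 3′ untranslated region (UTR) of each gene was searched on the sense strand for the reverse complement of the seed, CTACCTC. Igf2bp1 and Lin28b held 4 matches each, Igf2bp2 and Igf2bp3 held 1 each, and Mex3a, Mex3b, Mex3c, Mex3d, Msi1 and Msi2 held 0. Over all 21027 genes with such a 3′ UTR, 9.02% held at least 1. The matches of the genes that rose with 4-OHT, at chr16:22059474-22059480 and chr6:49086788-49086794 of GRCm38, both on the minus strand, are given in capitals with the bases around them.
Igf2bp2: gaaaaacacacaaataaaagCTACCTCag
Igf2bp3: aaacgtgcatttttactcaaCTACCTCag
The match begins at base 1313 of 1784 in the Igf2bp2 and at base 548 of 2119 in the Igf2bp3 3′ UTR. The 3′ UTRs of Igf2bp1 and Lin28b have 6337 and 4445 bases, and those of Msi2 and Mex3a, with 0 matches, have 5310 and 4215 bases. Mature let-7 was not analysed here.

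The third comparison, Fl/Fl 4-OHT against untreated Fl/+ cultures, shares libraries with both others and joins the genotype with the treatment. Of 8 genes 4 were called, 3 lower and 1 higher, beside 30.7% of the 15032 genes tested. Here 2357 genes were higher and 2263 lower with TMM, and 3150 and 1603 with library size alone. Mex3a was at 32.4%, Mex3b at 36.9% and Mex3d at 49.8% of the untreated level, with log2 fold changes of -1.63 (SE 0.158), -1.44 (SE 0.219) and -1.01 (SE 0.175). Igf2bp2 was at 340% of it, with a log2 fold change of 1.76 (SE 0.435, adjusted p = 0.0106). Its level in Fl/Fl 4-OHT cultures, 46.0 ± 12.6 CPM, differed from the 46.6 ± 12.4 CPM of Fl/+ 4-OHT cultures by less than the spread between libraries. Igf2bp3, at 0.777 ± 0.429 CPM against 0.524 ± 0.466 CPM, did not pass the test (log2 difference 0.58, SE 0.601).

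Markers of several cell states differed in the third comparison as well, and their part in these values was not tested. Of 12 oligodendrocyte lineage markers 8 were higher and 1 lower (75% called, beside 30.7% of all genes), and their sums were 3470 to 4520 CPM in untreated and 3620 to 5610 CPM in Fl/Fl 4-OHT cultures. Of 14 neural stem cell markers 0 were higher and 6 lower (42.9%), with sums of 10500 to 14400 and 8340 to 12700 CPM. Of 12 neuron markers tested 1 was higher and 5 lower (50%), with sums of 889 to 1170 and 669 to 874 CPM. Of 8 astrocyte markers 1 was higher and 4 lower (62.5%), with sums of 3470 to 4590 and 3410 to 7010 CPM. Of 6 ependymal and choroid markers 2 were tested and both were higher, with sums of 27.3 to 61.9 and 68.9 to 95.9 CPM. The neuron and the ependymal sums did not overlap between the groups, and the other sums given above did. Map2 carried most of the neuron sum, at 902 CPM untreated and 684 CPM in Fl/Fl 4-OHT cultures on average. Foxj1 carried most of the ependymal sum, at 39.0 and 81.9 CPM, so these sums say little of the other markers. The microglia sums, 0.0698 to 0.616 and 0.688 to 2.01 CPM, did not overlap either, but no microglia marker could be tested.

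**Figure D4:**
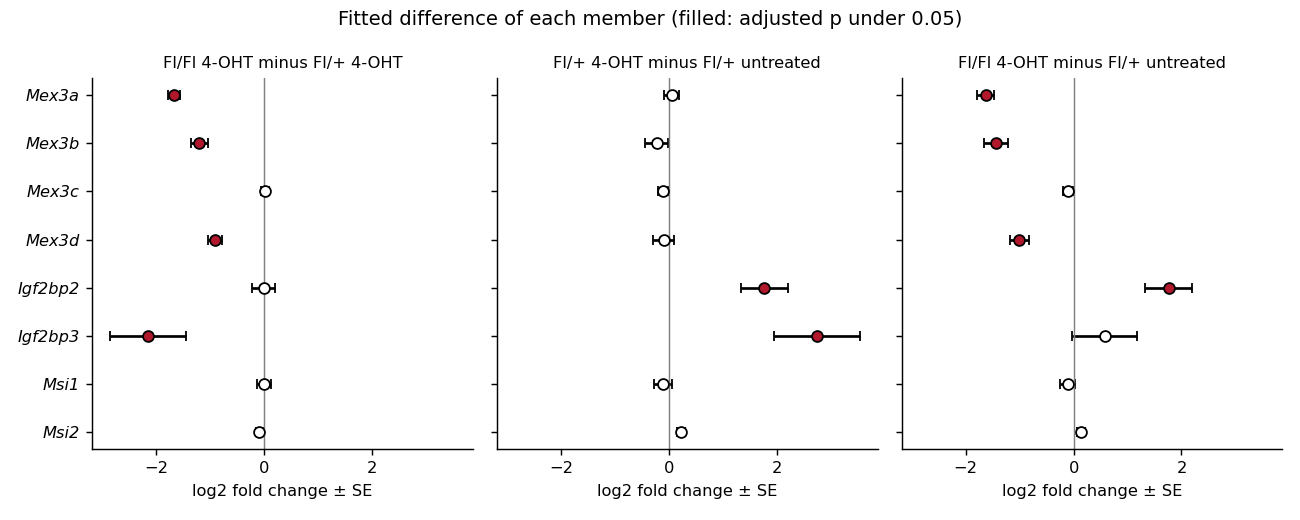
Fitted log2 fold change with its standard error for the 8 tested genes in the 3 comparisons, with filled points for an adjusted p under 0.05. Mex3a, Mex3b and Mex3d lie below 0 in the left and right panels, which share the Fl/Fl 4-OHT libraries, and Igf2bp2 lies above 0 in the middle and right panels, which share the untreated libraries.

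Igf2bp3 had the largest fitted fold change of the 8 genes in both of the first comparisons. After Trrap deletion this rested on library Fl/+ 4-OHT 19, without which Igf2bp3 was at -1.11 and Mex3a at -1.65 on the log2 scale. With 4-OHT and without that library, Igf2bp3 was at 1.68 and Igf2bp2 at 1.64. Genes with a level pattern like that of Igf2bp3 were sought among 10862 protein-coding genes by Pearson's r of log2(CPM + 0.5) over the 15 libraries. The closest were Trmt5 (r = 0.886), a tRNA methyltransferase, Gng3 (0.812), Cspg4 (0.811), Zswim5 (0.811) and Akna (0.798). Cspg4, the NG2 proteoglycan of oligodendrocyte precursors, averaged 89.6 CPM in untreated, 156 CPM in Fl/+ 4-OHT and 111 CPM in Fl/Fl 4-OHT cultures. Over the 14 libraries without Fl/+ 4-OHT 19, the r of these 5 genes was 0.828, 0.78, 0.854, 0.586 and 0.708. They were no longer the closest, with ranks of 40, 97, 22, 644 and 225. The closest were then Galk1 (0.922), Tpi1 (0.906), Stc2 (0.894), Gtpbp2 (0.888) and Fam162a (0.885). The genes closest to Mex3a were looked up after its values had been seen. They were led by the histone variant gene H2afy2 (0.993), at 71.8, 73.4 and 29.5 CPM in the 3 groups, and by Trim24 (0.98), a transcriptional cofactor. The difference between Fl/Fl and Fl/+ cultures enters these r values, so they describe the libraries only.

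Lists of other genes of post-transcriptional control were examined to set the families in their surroundings. After Trrap deletion 15 of 42 other RNA-binding protein genes tested, from a list of 43, were called lower and 1 higher. This is 38.1% called, beside 31.7% of all genes, of which 15.0% were lower and 16.8% higher. The median of the list on the log2 scale was -0.28, beside 0.02 for all genes. The largest falls were those of Trim71 and Elavl2. Elavl2, a neuronal Hu protein that stabilises AU-rich mRNAs, was at 8.89 to 16.7 CPM in Fl/+ 4-OHT and 4.10 to 5.56 CPM in Fl/Fl 4-OHT cultures, with no overlap and a log2 fold change of -1.30 (SE 0.191, adjusted p = 0.000721). The 1 gene that rose was Celf6, a splicing regulator, from 1.06 to 2.75 CPM on average.

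Trim71, a ubiquitin ligase of early development and a classic let-7 target, was at 6.32, 0.57, 2.45, 1.07 and 0.60 CPM in Fl/+ 4-OHT cultures and at 0.155, 0.646, 0.36, 0.309 and 0.104 CPM in Fl/Fl 4-OHT cultures. Like Igf2bp3 it was highest by far in the culture of mouse 19. With 17 to 187 counts in Fl/+ 4-OHT and 3 to 19 counts in Fl/Fl 4-OHT libraries, it passed the count filter through the former. The fold on the log2 scale was -2.78 (SE 0.745, adjusted p = 0.0158), and -1.88 (adjusted p = 0.0376) without that library.

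In the list of microRNA machinery 5 of 17 genes were lower and 0 higher after Trrap deletion (29.4% called, beside 31.7% of all genes). Ago2, the slicing Argonaute protein, averaged 110 CPM in the control and 77.0 CPM in the mutant group, a log2 fold change of -0.50 (SE 0.10). Tnrc6b, an Argonaute partner, averaged 155 and 115 CPM. Of 21 let-7 target genes 20 were tested and 40% called. Among them 2 were higher, the G1 cyclin Ccnd1 and Myc, and 6 were lower, led by the Ras gene Nras from 229 to 107 CPM (log2 fold change -1.08) and by the TGF-β receptor gene Tgfbr1 from 33.1 to 17.8 CPM.

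Of the 18 m6A genes 1 was higher and 3 were lower (22.2% called, beside 31.7% of all genes). Mettl14, a subunit of the methyltransferase, rose by 0.31 on the log2 scale, while Rbm15b and Wtap, which guide the enzyme, fell by 0.77 and 0.33. Of 14 genes whose mRNAs are known to be bound by Musashi or Igf2bp proteins 13 were tested, and 2 were higher and 5 lower (53.8% called). Dcx, a microtubule protein of migrating neuroblasts, averaged 44.5 CPM in the control and 7.74 CPM in the mutant cultures (log2 fold change -2.51, SE 0.408, adjusted p = 0.00123). Gap43, a growth cone protein, fell by 1.37 on the log2 scale. Myc rose by 0.54. Numb rose by 0.27 (SE 0.0877, adjusted p = 0.036), which was no longer called without library Fl/+ 4-OHT 19 (0.25, adjusted p = 0.0921).

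With 4-OHT, 3 of the 42 other RNA-binding protein genes tested were higher and 2 lower (11.9% called, beside 13.8% of all genes). This and the following list counts come from the unpaired fit. Cpeb4, a cytoplasmic polyadenylation factor, and Rbfox2, a splicing factor, rose by 0.49 and 0.42 on the log2 scale, while Cpeb2 and the neural splicing factor Ptbp2 fell by 0.54 and 0.53. Cpeb4 and Ptbp2 were not called without library Fl/+ 4-OHT 19, at 0.46 and -0.57 on the log2 scale with adjusted p of 0.0783 and 0.0735. Ago2 and Ago3, with log2 changes of 0.55 and 0.50, were 2 of the 3 higher genes among 17 of the microRNA machinery (17.6% called). In the m6A list 2 of 18 genes were higher (11.1% called), the demethylase Alkbh5 (0.53) and Rbm15 (0.37), the latter at 0.40 with an adjusted p of 0.0643 by edgeR without library 19.

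Of the 20 let-7 target genes tested 3 were higher after 4-OHT and 0 lower (15% called, beside 13.8% of all genes). Hmga2, a chromatin protein of fetal stem cells whose mRNA Igf2bp proteins also bind, was at 5.03, 3.07, 4.13, 3.81 and 2.80 CPM untreated and at 19.7, 10.4, 9.60, 15.6 and 13.2 CPM with 4-OHT. Every treated culture was above every untreated one (log2 fold change 1.86, SE 0.236, adjusted p = 0.00101). Its relative Hmga1 rose from 9.16 to 30.4 CPM on average (log2 fold change 1.73). Of the 13 bound mRNAs tested 4 were higher and 0 lower (30.8% called). H19, an imprinted long non-coding RNA, averaged 0.995 CPM untreated and 48.5 CPM with 4-OHT (log2 fold change 5.59, SE 0.649, adjusted p = 0.000614), with 105 CPM in the culture of mouse 19 and 26.0 to 53.4 CPM in the other treated Fl/+ cultures. With the mouse as a replicate block, beside 25.7% of all genes, the other RNA-binding proteins had 8 genes higher and 4 lower (28.6% called), Trim71 among the higher ones (log2 fold change 1.96, adjusted p = 0.00478). The let-7 targets then had 9 higher and 0 lower (45%), and the bound mRNAs 6 higher and 0 lower (46.2%). The microRNA machinery had 3 higher and 1 lower (23.5%), and the m6A list 2 higher and 1 lower (16.7%). Every gene of these lists that was called in the unpaired fit was also called with the block.

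**Figure D5:**
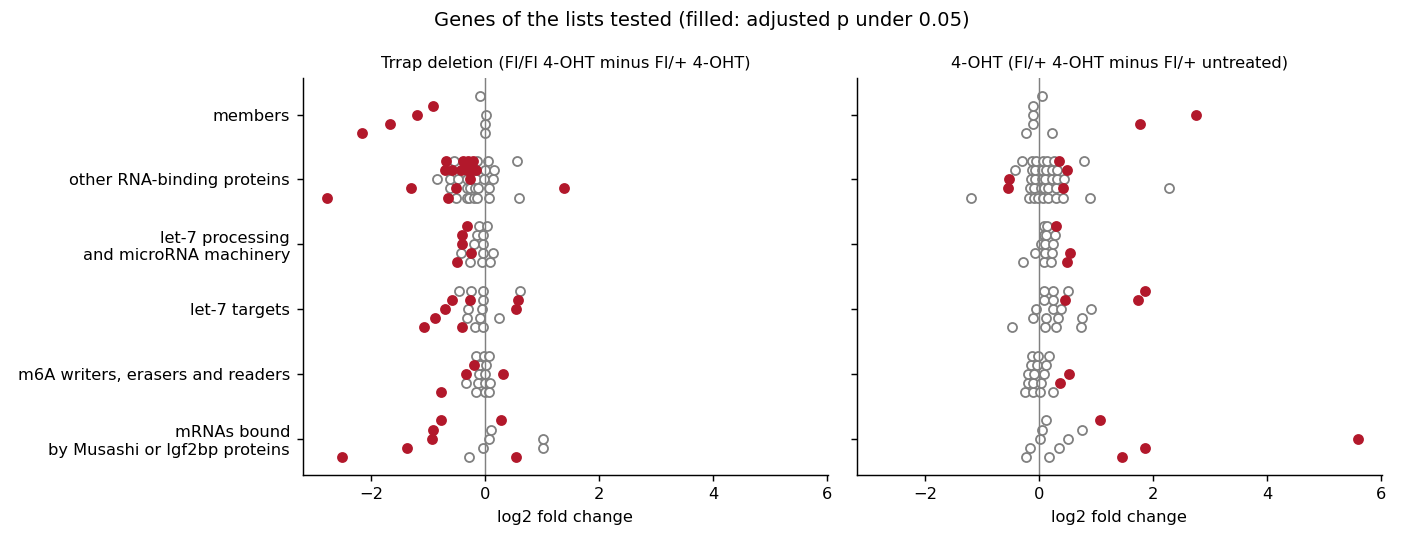
Log2 fold change of every tested gene of 6 lists after Trrap deletion (left) and with 4-OHT (right), with filled points for an adjusted p under 0.05. Most filled points of the other RNA-binding proteins lie below 0 on the left (15 lower, 1 higher), and the filled point farthest to the right after 4-OHT is H19.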

How the data were processed

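Poly(A) RNA of 15 cultures was sequenced by the authors from stranded libraries as short single-end reads. Per the submitters' notes and the study's methods, reads were mapped to GRCm38 with STAR 2.5.4b, and uniquely mapped reads were assigned to Ensembl genes with featureCounts 1.5.0. The values deposited by the authors are raw counts, with no normalization. PCR copies were not removed by molecular identifiers, so limits based on counts cover counting error only. IDs were matched to GENCODE vM21 symbols, which covered 53620 of 53801 genes. The labels and the methods give the 4-OHT dose and exposure time differently, so no dose is stated.

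Differences in counts were tested in R 4.3.3 by edgeR 4.0.16 (filterByExpr with a minimum of 10, TMM scaling, quasi-likelihood F test, Benjamini-Hochberg adjustment, calls under 0.05), each comparison on its own 10 libraries. The script was tested on simulated data. CPM used TMM-scaled totals over 15 libraries, and RPKM used exon union length. Exact permutation tests on log2(CPM + 0.5) were used only for sensitivity. Nothing in the labels says whether cultures were derived separately beyond the mouse number. Within a group, no library pair had counts equal within sampling noise.

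The labels number the same mice in the untreated and treated Fl/+ groups. Deviations from group means over 14821 genes correlated at 0.153 to 0.634 within a mouse and at -0.559 to 0.35 between mice. These ranges overlap, so the pairing rests on the labels. An alternative fit kept the mouse number as a replicate block.

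The genes, the lists and their rules were chosen with earlier results of these data known. Named were all 10 family genes and Trrap, the 2 largest called rises and falls of each list in the first 2 comparisons, and the 5 genes most like the family gene with the largest fold change. Hes5, Sox10, Nes, Sox2, Lin28a, Gfap, Mobp, Olig1, Olig2, Aldoc, Gja1, S100b, Gjb6, H2afy2 and Trim24 were named after their values were seen. So were Fabp7, Tubb3, Slc17a7, Map2, Foxj1, Flt1, Galk1, Tpi1, Stc2, Gtpbp2 and Fam162a.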

Additional observations from a re-analysis of the deposited data

Results flagged for a closer look

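In 3 genes a single library stood apart from the other 4 of its group by Dixon's criterion, which chance meets in about 1 of 20 groups of continuous values, and 27 groups were examined. Igf2bp3 in the Fl/+ 4-OHT culture of mouse 19 was at 11.0 CPM. Mex3c in the Fl/+ 4-OHT culture of mouse 26 was at 72.9 CPM, the lowest of its group. Igf2bp1 was at 0.0362 CPM in the untreated culture of mouse 19, 0.0347 CPM in the Fl/+ 4-OHT culture of mouse 35 and 0.0328 CPM in the Fl/Fl 4-OHT culture of mouse 29, each of which is 1 count against 0 in the rest of the group. Such a group always meets the criterion, so the chance rate does not apply to Igf2bp1.

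In 2 further results the paired differences after 4-OHT had opposite signs in subsets of the mice. For Mex3a, the mean difference in log2(CPM + 0.5) was -0.21 in mice labelled female, lower in both, and 0.26 in mice labelled male, higher in all 3. For Mex3d it was 0.13 in mice numbered above 30 and -0.21 in mice below 30. The difference between the subsets was not tested.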

How the results depend on the processing

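The falls of Mex3a, Mex3b and Mex3d after Trrap deletion kept their direction under all alternatives and were called under all of them except within the 2 against 2 mice above 30. Igf2bp2 rose with 4-OHT under all alternatives, and its call was lost only without Fl/+ 4-OHT 19. With the mouse as a replicate block, genes called after 4-OHT numbered 3809 against 2044, and with the number series of the mice as covariate 3170. Leaving out 1 library gave 1271 to 2522 genes and 0 to 2 of the 8 family genes, the lowest without Fl/+ 4-OHT 19 (1311 without Fl/+ 4-OHT 35). Msi2 after 4-OHT passed the threshold under 7 alternatives, the block included. With at least 10 counts in every library, Igf2bp3 was not tested in any of the 3 comparisons. The block without mouse 19, the block for the other lists, and the named genes and likeness without Fl/+ 4-OHT 19, were chosen after seeing the data.

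Signs turned only in differences that were never called, and the cause was not tested. After Trrap deletion, Msi1 (0.00) became -0.01 with DESeq2 size factors, DESeq2's Wald test, no filter or a fit shared by 15 libraries, 0.00 with at least 10 counts in every library, and -0.09 within mice below 30. Igf2bp2 (-0.01) became 0.02 with library size alone and 0.54 within mice above 30, and Mex3c (0.02) became -0.01 within mice below 30. With 1 library left out Msi1 ranged from -0.07 to 0.10, Igf2bp2 from -0.18 to 0.13 and Mex3c from -0.04 to 0.03. After 4-OHT, Mex3a (0.05) became -0.02 within mice below 30, 0.00 in the block without mouse 19, and -0.03 to 0.17 with 1 library left out, and within mice above 30 Mex3b was 0.04 and Mex3d 0.15.

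Igf2bp3 had 5 to 325 counts per library, which limits the precision of its fold.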
